A study of Homo sapiens with 4 samples.

Results

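Lysine methyltransferase and demethylase genes were examined in the triple-negative human breast cancer cell line MDA-MB-231 after 24 h with the compound Neoribocic or with its solvent control DMSO. The members were the protein-coding genes of the count table whose symbols begin with KMT, KDM, SETD, NSD or PRDM followed by a digit, and 55 of 20263 genes met that rule. Messenger RNA was sequenced in 2 libraries per group, all from cells in medium with 10% serum. The protocol names the agent Rib_CA, which was read as the same compound, at a dose not given in the sources used here, and the title of the series ties Neoribocic to blockade of the cell cycle. Whether libraries are separate cultures is not labelled, and p-values then reflect only how far these samples spread, a spread that may be technical.

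Lysine methyltransferases add methyl groups to histone tails, and demethylases take them off. Methylation of lysine 4 of histone H3 (H3K4) marks active promoters and enhancers, that of lysine 36 (H3K36) the bodies of transcribed genes, that of lysines 9 and 27 (H3K9, H3K27) repressed chromatin, and that of lysine 20 of histone H4 (H4K20) is tied to chromosome compaction and the cell cycle. KMT2 genes are mutated in many cancers, and KDM5 demethylases have been tied to drug tolerance of cancer cells.

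Of the 55 members, 47 had enough counts to be tested, 15 of which fell and 6 rose with Neoribocic. Among all 13879 genes tested 21.3% fell and 19.1% rose, or 40.4% in either direction, and the share of tested members was 31.9% lower and 12.8% higher. Of the members, 8 passed the threshold in the fit as made and in all 18 alternative settings tried: KMT2A, SETD2, NSD1, KDM3A, PRDM6 and PRDM10, which fell, and KDM4D and SETD4, which rose. How many of all genes tested passed in every setting was not counted, so this number does not set the members apart. RefSeq sequences (GRCh38.p14) of the 250 bases before the start of 5 of these 8 members are shown, as their mRNA changed under every setting. They are the 3 that fell most among those with an entry, and both that rose, written 5′ to 3′ on the gene's strand. NSD1 had 5 entries, of which the first is given. Capitals mark matches to the motifs searched on both strands.
SETD2 (chr3:47164114-47164363, - strand): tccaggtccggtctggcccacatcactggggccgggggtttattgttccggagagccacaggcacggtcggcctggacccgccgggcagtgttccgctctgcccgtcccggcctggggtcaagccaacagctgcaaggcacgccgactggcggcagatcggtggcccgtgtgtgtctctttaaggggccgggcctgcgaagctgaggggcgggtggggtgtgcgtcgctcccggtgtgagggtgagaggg
NSD1 (chr5:177131548-177131797, + strand): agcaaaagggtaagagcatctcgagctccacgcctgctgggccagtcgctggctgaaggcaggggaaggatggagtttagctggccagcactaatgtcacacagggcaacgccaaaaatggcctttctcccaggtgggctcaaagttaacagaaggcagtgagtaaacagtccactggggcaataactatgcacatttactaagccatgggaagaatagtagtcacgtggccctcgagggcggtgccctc
KMT2A (chr11:118436242-118436491, + strand): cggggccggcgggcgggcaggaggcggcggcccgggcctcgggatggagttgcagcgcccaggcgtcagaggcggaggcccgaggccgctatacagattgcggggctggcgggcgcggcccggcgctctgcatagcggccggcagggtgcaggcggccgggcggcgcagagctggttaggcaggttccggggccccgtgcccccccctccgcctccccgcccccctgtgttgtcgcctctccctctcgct
KDM4D (chr11:94973459-94973708, + strand): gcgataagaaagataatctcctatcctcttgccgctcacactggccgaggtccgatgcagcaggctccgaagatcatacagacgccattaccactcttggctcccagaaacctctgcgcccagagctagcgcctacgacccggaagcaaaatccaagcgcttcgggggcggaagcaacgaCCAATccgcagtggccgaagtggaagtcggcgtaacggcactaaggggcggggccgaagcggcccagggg
SETD4 (chr21:36060527-36060776, - strand): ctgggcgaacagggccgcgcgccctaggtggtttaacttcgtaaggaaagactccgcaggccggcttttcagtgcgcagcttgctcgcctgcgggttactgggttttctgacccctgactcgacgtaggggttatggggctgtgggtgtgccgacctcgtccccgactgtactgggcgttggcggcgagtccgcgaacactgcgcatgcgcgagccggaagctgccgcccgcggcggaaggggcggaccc
The motifs were E2F as TTTCCCGC or TTTGGCGC, NF-Y as CCAAT and ATF4 as TGATGNAA. They were present in 1.93%, 32.0% and 3.14% of 35116 promoter windows of the same length. The KDM4D window held CCAAT and the other windows held none of these letters. A match here describes letters only. The table had entries for 48 of the 55 members.

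The libraries held 41572094 and 43014212 counts with Neoribocic and 34774542 and 37754168 with DMSO. Mitochondrial genes took 5.76% and 7.24% of counts in the Neoribocic libraries, against 8.68% and 21.7% in the DMSO libraries, so DMSO replicate 2 stood apart. Of the line's markers, VIM (vimentin) was at 2804 to 4238 CPM and AXL at 1110.0 to 1821 CPM in the 4 libraries. CPM are counts relative to the library total after scaling by the trimmed mean of M values (TMM). CDH1 (E-cadherin) did not exceed 0.141 CPM, ESR1 (the estrogen receptor) 0.649 CPM, PGR 1.77 CPM or CLDN3 4.57 CPM, while CLDN4, another claudin usually low in this line, was at 46.1 to 132 CPM. In bulk RNA, fewer cells of a kind and less RNA per cell cannot be told apart.

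The design sets Neoribocic against its solvent. Log2 fold changes are Neoribocic over DMSO, and a gene is called when its Benjamini-Hochberg adjusted p from edgeR's quasi-likelihood test over all 13879 genes is below 0.05. The 15 members that fell changed by -2.04 to -0.84 (median -1.24), and the 6 that rose by 0.56 to 1.82 (median 0.91). The 26 members that were not called lay between -1.11 and 0.49. Both Neoribocic libraries lay below both DMSO libraries in 25 members and above them in 12, against 37.3% and 37.8% of all genes tested, or 75.1% either way. Across all genes of this series the fold change was related to transcript length and GC content. Each member is therefore also given after a correction for both, fitted per library over 13862 genes. A corrected value below is the log2 fold change of that fit with its edgeR adjusted p. The correction takes out any trend along length and GC content, whether technical or part of the response to Neoribocic. Which of these it took out was not tested. With the correction 8 members were lower and 4 higher, against 19.4% and 16.6% of all genes. Without Neoribocic replicate 1 the count of members called lower was 8, and that of members called higher was 2. The count called higher was also 2 without DMSO replicate 2 or without Neoribocic replicate 2.

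**Figure D1:**
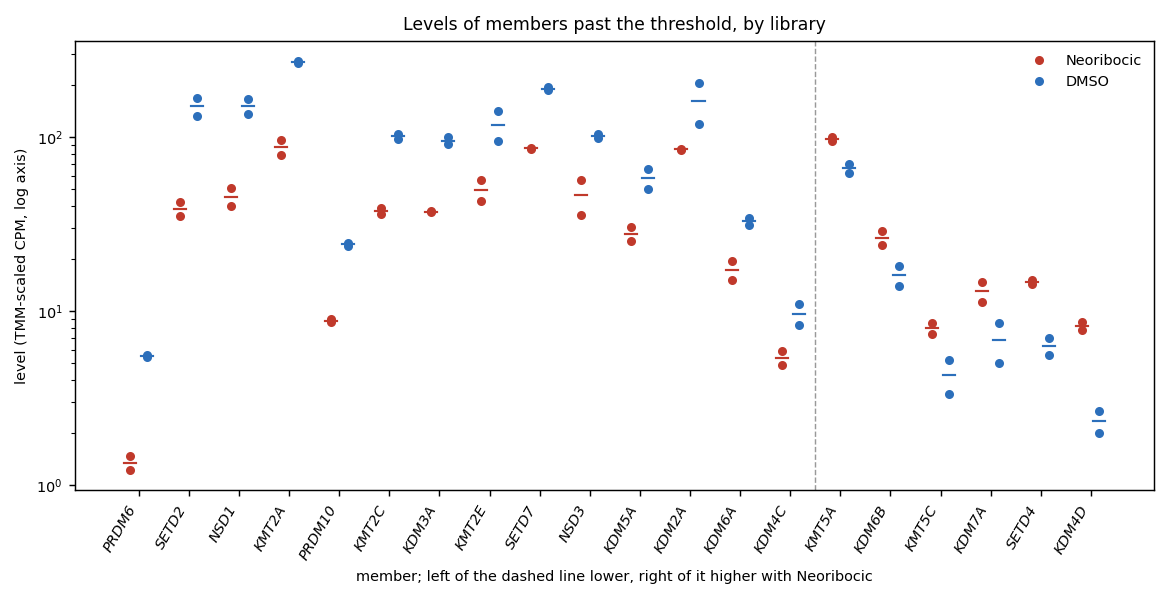
Level in every library of 20 members past the threshold, in TMM-scaled CPM on a log axis, with Neoribocic to the left of DMSO. Points are libraries (2 per group) and short lines are group means. In each of these 20 genes both Neoribocic libraries lie on one side of both DMSO libraries, as in 75.1% of all genes tested. Genes past the threshold tend to separate in this way, so it is not a further result.

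In each role group below, the counts stand beside 21.3% that fell and 19.1% that rose over all genes tested. Among the H3K4 methyltransferases, with KMT2E counted in, 4 of 8 tested genes fell and 0 rose. Their median log2 fold change was -0.83, or -0.46 with the correction, against 0.01 and -0.006 over all genes tested. The 8 had a median transcript length of 7917 bases. Of all genes of 6 to 8 kb 39.7% fell, with a median of -0.52. Of those of 8 kb and above 49.2% fell, with a median of -0.79. The group also splits by GC content, 43.2% to 47.8% in the 4 that fell and 59.1% to 64.8% in the 4 others. Over all genes 33.9% below 50% GC fell, against 8.0% at 50% or more. KMT2A, the founding MLL enzyme that keeps HOX genes on, had 96.2 and 78.5 CPM in the Neoribocic libraries, against 272.5 and 266 CPM in the DMSO libraries. The groups did not overlap, and the log2 fold change was -1.62 ± 0.20 (SE; edgeR adjusted p = 0.00101), with a corrected value of -0.73 (adjusted p = 0.0261). A same-strand gene covers 17.9% of the exon bases of KMT2A. KMT2C, which places monomethyl marks at enhancers, had 38.9 and 36.1 CPM in the Neoribocic libraries, against 96.9 and 104 CPM in the DMSO libraries. Its libraries lay close together within each group, and its log2 fold change was -1.42 ± 0.20 (SE; edgeR adjusted p = 0.00155). The call was lost with the correction, at -0.37 (adjusted p = 0.14), with 1.23e-09 to 0.171 over the 18 alternatives, and KMT2C has partial genomic copies among which reads can be divided. KMT2E, an MLL relative known for binding methylated H3K4 and not for a methyltransferase activity, had 43.1 and 56.6 CPM in the Neoribocic libraries, against 94.6 and 141 CPM in the DMSO libraries. DMSO replicate 2 was the highest of the 4, and the log2 fold change was -1.24 ± 0.26 (SE; edgeR adjusted p = 0.0068), or -0.52 (adjusted p = 0.155) with the correction; without Neoribocic replicate 1 the edgeR adjusted p was 0.0608, and the adjusted p was 0.000169 to 0.155 over the 18 alternatives. SETD7, a monomethyltransferase of H3K4 and of many non-histone proteins, had 85.03 and 86.8 CPM in the Neoribocic libraries, against 193 and 186 CPM in the DMSO libraries. Each pair of libraries was tight, with a log2 fold change of -1.14 ± 0.18 (SE; edgeR adjusted p = 0.00251) and a corrected value of -0.40 (adjusted p = 0.0692), with adjusted p of 3.39e-07 to 0.0863 over the 18 alternatives.

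The other H3K4 enzymes did not pass in the uncorrected fit. KMT2B, the closest relative of KMT2A, had 73.8 and 74.5 CPM in the Neoribocic libraries, against 74.1 and 69.9 CPM in the DMSO libraries, and its groups overlapped. KMT2D, the relative of KMT2C at enhancers, had 188 and 180.2 CPM in the Neoribocic libraries, against 185 and 243 CPM in the DMSO libraries, with a log2 fold change of -0.22 ± 0.20 (SE; edgeR adjusted p = 0.414). KMT2D passed, lower, when the correction used the transcript of median length, at -0.87 (edgeR adjusted p = 0.0131), with 0.0131 to 0.996 over the 18 alternatives. SETD1A, a catalytic subunit of the COMPASS complexes that place most H3K4 trimethylation, had 95.1 and 97.5 CPM in the Neoribocic libraries, against 110.1 and 166 CPM in the DMSO libraries. Its Neoribocic libraries were below both DMSO libraries, but the DMSO libraries were far apart and the log2 fold change was -0.52 ± 0.23 (SE; edgeR adjusted p = 0.103). With the correction SETD1A passed at -0.76 (adjusted p = 0.0276), and it also passed without DMSO replicate 1 (edgeR adjusted p = 0.0372), with 0.0149 to 0.563 over the 18 alternatives. Its relative SETD1B stood at -0.22 and passed with the correction at -0.60 (adjusted p = 0.0427), with 0.0427 to 0.918 over the 18 alternatives. Per length, the sum over the 8 tested genes of this group, KMT2E among them, was 70.0 and 73.1 CPM per kb in the Neoribocic libraries. In the DMSO libraries it was 113 and 131 CPM per kb.

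Of the 4 H3K36 methyltransferases 3 fell. Their median transcript length was 9459 bases and their median GC content 45.2%. Of all genes of 8 kb and above 49.2% fell, and of those below 50% GC 33.9% fell. SETD2, the enzyme of H3K36 trimethylation in transcribed genes, had 35.3 and 42.2 CPM in the Neoribocic libraries, against 133 and 167 CPM in the DMSO libraries. This was the second largest fall among the members, at -1.95 ± 0.22 (SE; edgeR adjusted p = 0.000798), and the corrected value was -1.13 (adjusted p = 0.00876). NSD1, which makes the dimethyl mark between genes, had 39.9 and 50.97 CPM in the Neoribocic libraries, against 165.5 and 135 CPM in the DMSO libraries, for a log2 fold change of -1.73 ± 0.22 (SE; edgeR adjusted p = 0.00117) and a corrected value of -0.84 (adjusted p = 0.0103). NSD3, a relative amplified in some breast cancers, had 35.5 and 56.9 CPM in the Neoribocic libraries, against 104 and 97.96 CPM in the DMSO libraries. The Neoribocic libraries of NSD3 lay apart, replicate 2 above replicate 1, its log2 fold change was -1.13 ± 0.26 (SE; edgeR adjusted p = 0.00965), and the call was lost without Neoribocic replicate 1 (edgeR adjusted p = 0.0646) and with the correction, at -0.17 (adjusted p = 0.462), with 0.00062 to 0.462 over the 18 alternatives. NSD2, the family member activated in multiple myeloma, had 201 and 269 CPM in the Neoribocic libraries, against 297 and 239 CPM in the DMSO libraries. Its groups overlapped at a log2 fold change of -0.19 ± 0.22 (SE; edgeR adjusted p = 0.505), and per length it had the highest level of the 4, 29.99 CPM per kb with Neoribocic and 34.3 CPM per kb with DMSO.

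Of the 3 H4K20 methyltransferases 2 rose and 0 fell. Their median transcript length was 3140 bases and their median GC content 51.85%. Of all genes of 2 to 4 kb 19.5% rose, and of those at 50% GC or more 31.1% rose. KMT5A, the enzyme of H4K20 monomethylation that cycles with cell division, had 95.2 and 99.5 CPM in the Neoribocic libraries, against 70.1 and 61.7 CPM in the DMSO libraries. The log2 fold change was 0.56 ± 0.19 (SE; edgeR adjusted p = 0.0472), and leaving out any of the 4 libraries ended the call (edgeR adjusted p = 0.0811 and 0.165 without DMSO replicates 1 and 2, 0.134 and 0.141 without Neoribocic replicates 1 and 2). It was also past the threshold neither with the correction, at 0.46 (adjusted p = 0.0758), nor with the replicate number as a block (edgeR adjusted p = 0.0853), and the adjusted p was 0.0183 to 0.165 over the 18 alternatives. KMT5C, which adds further methyl groups to H4K20, had 8.57 and 7.35 CPM in the Neoribocic libraries, against 5.25 and 3.32 CPM in the DMSO libraries. Its log2 fold change was 0.89 ± 0.31 (SE; edgeR adjusted p = 0.0478), or 0.21 (adjusted p = 0.61) with the correction, and the edgeR adjusted p was 0.157, 0.213 and 0.1 without DMSO replicate 2 and Neoribocic replicates 1 and 2, with 0.0226 to 0.61 over the 18 alternatives. Its relative KMT5B had 13.5 and 17.3 CPM in the Neoribocic libraries, against 25.6 and 22.7 CPM in the DMSO libraries, lower in both Neoribocic libraries, and was not called at -0.65 ± 0.24 (SE; edgeR adjusted p = 0.0585), but passed with DESeq2 (adjusted p = 0.0434), with 0.0434 to 0.704 over the 18 alternatives.

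Of the 5 other SETD genes only SETD4 passed. It encodes a SET domain protein and had 15.04 and 14.2 CPM in the Neoribocic libraries, against 6.96 and 5.58 CPM in the DMSO libraries. All libraries of one group were apart from those of the other, with a log2 fold change of 1.22 ± 0.25 (SE; edgeR adjusted p = 0.00648) and a corrected value of 1.43 (adjusted p = 0.0073). Its adjusted p was 0.000149 to 0.0458 over the 18 alternatives. SETD5, a chromatin regulator, was the most abundant of the 5 per length, at 27.3 CPM per kb with Neoribocic and 36.8 CPM per kb with DMSO, and had 149.9 and 223 CPM in the Neoribocic libraries, against 215 and 288 CPM in the DMSO libraries. SETD3 (the actin histidine methyltransferase), SETD6 (which methylates the NF-kB subunit RELA) and SETD9 had log2 fold changes of -0.35, -0.31 and 0.44 and were not called. SETD6 passed when the correction used the transcript of median length, with adjusted p of 0.0353 to 0.738 over the 18 alternatives.

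In the PRDM family, zinc finger factors whose PR domain resembles the SET domain and of which only some methylate histones, 2 of the 9 tested genes reported here fell and 0 rose. PRDM6, a repressor known from smooth muscle, had 1.46 and 1.22 CPM in the Neoribocic libraries, against 5.55 and 5.46 CPM in the DMSO libraries. It showed the largest fall among the members, -2.04 ± 0.31 (SE; edgeR adjusted p = 0.002), at a level below 6 CPM, and the corrected value was -1.13 (adjusted p = 0.0272). PRDM10, another zinc finger factor, had 8.95 and 8.66 CPM in the Neoribocic libraries, against 23.6 and 24.6 CPM in the DMSO libraries, a log2 fold change of -1.45 ± 0.22 (SE; edgeR adjusted p = 0.00215) and a corrected value of -0.95 (adjusted p = 0.0103). PRDM2 (RIZ), an H3K9 methyltransferase, had 13.3 and 7.08 CPM in the Neoribocic libraries, against 30.03 and 13.99 CPM in the DMSO libraries. Replicate 1 was about as far above replicate 2 within each group as the groups were apart, and its log2 fold change of -1.11 ± 0.46 (SE; edgeR adjusted p = 0.105) passed only with the replicate block (edgeR adjusted p = 0.00334), without DMSO replicate 2 (0.04) and with DESeq2 (0.0329), the adjusted p being 0.00334 to 0.485 over the 18 alternatives. PRDM4, the most abundant PRDM gene per length at 22.6 CPM per kb with Neoribocic and 28.5 CPM per kb with DMSO, was at -0.33. PRDM1 (BLIMP1), PRDM8, PRDM11, PRDM12 and PRDM15 had log2 fold changes between -0.18 and 0.49.

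Of 5 tested H3K4 demethylases 1 fell and 0 rose. KDM5A, which removes H3K4 trimethylation and was found as a binder of the RB protein, had 25.1 and 30.2 CPM in the Neoribocic libraries, against 65.6 and 49.9 CPM in the DMSO libraries. Its log2 fold change was -1.06 ± 0.23 (SE; edgeR adjusted p = 0.00887), with edgeR adjusted p of 0.0518 and 0.0695 without DMSO replicate 1 and Neoribocic replicate 1, and its corrected value was -0.10 (adjusted p = 0.64), with adjusted p of 0.000335 to 0.686 over the 18 alternatives. KDM5B, a relative with high levels in many breast tumours, had 64.2 and 79.4 CPM in the Neoribocic libraries, against 64.7 and 56.1 CPM in the DMSO libraries. Its groups overlapped at a log2 fold change of 0.25 ± 0.21 (SE; edgeR adjusted p = 0.369), but with the correction it stood at 1.15 (adjusted p = 0.00419), with adjusted p of 0.00419 to 0.81 over the 18 alternatives. KDM5C, an X-linked relative mutated in intellectual disability, had 222 and 212 CPM in the Neoribocic libraries, against 189 and 165 CPM in the DMSO libraries. KDM1A (LSD1), the flavin-dependent demethylase of mono- and dimethyl H3K4, had 116.5 and 114 CPM in the Neoribocic libraries, against 88.9 and 88.7 CPM in the DMSO libraries. In both genes the Neoribocic libraries lay above the DMSO libraries, with log2 fold changes of 0.29 ± 0.19 (SE; edgeR adjusted p = 0.232) and 0.38 ± 0.18 (SE; edgeR adjusted p = 0.128). KDM1A passed, higher, when the correction used the transcript of median length, at 0.56 (edgeR adjusted p = 0.029), with 0.029 to 0.308 over the 18 alternatives. KDM1A and KDM5C had the highest levels per length of all members in the Neoribocic libraries, 38.05 and 35.98 CPM per kb, whereas SETD5 and NSD2 led in the DMSO libraries with 36.8 and 34.3 CPM per kb. The sum over the 5 H3K4 demethylases was 94.5 and 97.2 CPM per kb in the Neoribocic libraries, against 86.9 and 79.2 CPM per kb in the DMSO libraries. Such sums separated the groups in every role group. Of all single genes tested 75.1% separated either way, and how often sums over other genes separate was not counted. The sums were higher with Neoribocic for the H3K4 demethylases and the H4K20 methyltransferases and lower for all others. Of the 5 H3K4 demethylases only KDM5A was called, and it fell. The sums were not corrected for length and GC content, and no test was made of them.

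Among the 7 tested demethylases of H3K9, some of which also act on H3K36, 2 fell and 2 rose. KDM3A, an oxygen-dependent enzyme induced by hypoxia, had 37.6 and 36.8 CPM in the Neoribocic libraries, against 99.8 and 90.8 CPM in the DMSO libraries. The Neoribocic libraries were nearly equal, and the log2 fold change was -1.36 ± 0.20 (SE; edgeR adjusted p = 0.0018), with a corrected value of -0.88 (adjusted p = 0.00948). Its relative KDM3B had 121 and 114 CPM in the Neoribocic libraries, against 153 and 126 CPM in the DMSO libraries, at -0.24 ± 0.19 (SE; edgeR adjusted p = 0.343). KDM4C, which acts on trimethylated H3K9 and H3K36, had 4.87 and 5.92 CPM in the Neoribocic libraries, against 10.9 and 8.35 CPM in the DMSO libraries. Its log2 fold change was -0.84 ± 0.28 (SE; edgeR adjusted p = 0.0407), and it was not past the threshold in 8 of 18 alternatives, among them those without DMSO replicate 1 (edgeR adjusted p = 0.146), without Neoribocic replicate 1 (0.217) or 2 (0.086), with upper-quartile factors (0.0653), with library totals (0.136) and with the correction, at -0.54 (adjusted p = 0.129), the adjusted p being 0.0309 to 0.371 over the 18 alternatives. KDM4D, a short member of the same family with activity on H3K9, had 7.77 and 8.68 CPM in the Neoribocic libraries, against 2.002 and 2.65 CPM in the DMSO libraries. It showed the largest rise among the members, 1.82 ± 0.29 (SE; edgeR adjusted p = 0.00257), with a corrected value of 1.92 (adjusted p = 0.00449) and adjusted p of 4.51e-06 to 0.0197 over the 18 alternatives. KDM7A, which removes dimethyl marks from H3K9 and H3K27, had 11.2 and 14.8 CPM in the Neoribocic libraries, against 8.57 and 5 CPM in the DMSO libraries. Its log2 fold change was 0.94 ± 0.32 (SE; edgeR adjusted p = 0.0453), the corrected value was 1.91 (adjusted p = 0.0042), and without DMSO replicate 2 or Neoribocic replicates 1 and 2 the uncorrected edgeR adjusted p was 0.169, 0.0832 and 0.207, with 0.00373 to 0.207 over the 18 alternatives. KDM4A and KDM4B were at -0.08 and 0.22 and were not called. A same-strand gene covers 40.2% of the exon bases of KDM4A, and opposite-strand genes cover 21.4% of SETD6 and 14.5% of KDM8. Whether counting used the strand is not given here, so reads of such partners cannot be told apart.

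KDM2A, a CpG-binding demethylase of dimethyl H3K36, had 85.5 and 84.6 CPM in the Neoribocic libraries, against 119 and 204 CPM in the DMSO libraries. DMSO replicate 2 was far above DMSO replicate 1, and the log2 fold change of -0.93 ± 0.27 (SE; edgeR adjusted p = 0.0256) did not pass without DMSO replicate 2 (edgeR adjusted p = 0.153), Neoribocic replicate 1 (0.125) or Neoribocic replicate 2 (0.0968), nor with the correction, at -0.67 (adjusted p = 0.0695), the adjusted p being 0.00647 to 0.153 over the 18 alternatives. KDM2B, its relative in a Polycomb complex, had 61.5 and 60.7 CPM in the Neoribocic libraries, against 65.98 and 61.2 CPM in the DMSO libraries, a difference within the spread of the DMSO libraries. KDM8, first described as an H3K36 demethylase, was at 0.12. Of the 2 H3K27 demethylases 1 fell and 1 rose. KDM6A (UTX), an X-linked subunit of the KMT2C and KMT2D complexes, had 15.02 and 19.4 CPM in the Neoribocic libraries, against 30.99 and 34.4 CPM in the DMSO libraries, for a log2 fold change of -0.93 ± 0.24 (SE; edgeR adjusted p = 0.0157). KDM6B (JMJD3), which inflammatory signals induce in macrophages, had 28.6 and 23.9 CPM in the Neoribocic libraries, against 18.1 and 13.99 CPM in the DMSO libraries, for a log2 fold change of 0.71 ± 0.24 (SE; edgeR adjusted p = 0.0473). KDM6A lost its call without DMSO replicate 2 (edgeR adjusted p = 0.0653), without Neoribocic replicate 1 (0.109), with library totals (0.0665) and with the correction, at -0.27 (adjusted p = 0.289), the adjusted p being 0.00213 to 0.522 over the 18 alternatives. KDM6B lost its call without any of the 4 libraries (0.0563 and 0.181 without DMSO replicates 1 and 2, 0.206 and 0.0712 without Neoribocic replicates 1 and 2), with limma-voom (0.0522) and with the correction, at 0.46 (adjusted p = 0.14), the adjusted p being 0.02 to 0.235 over the 18 alternatives.

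**Figure D2:**
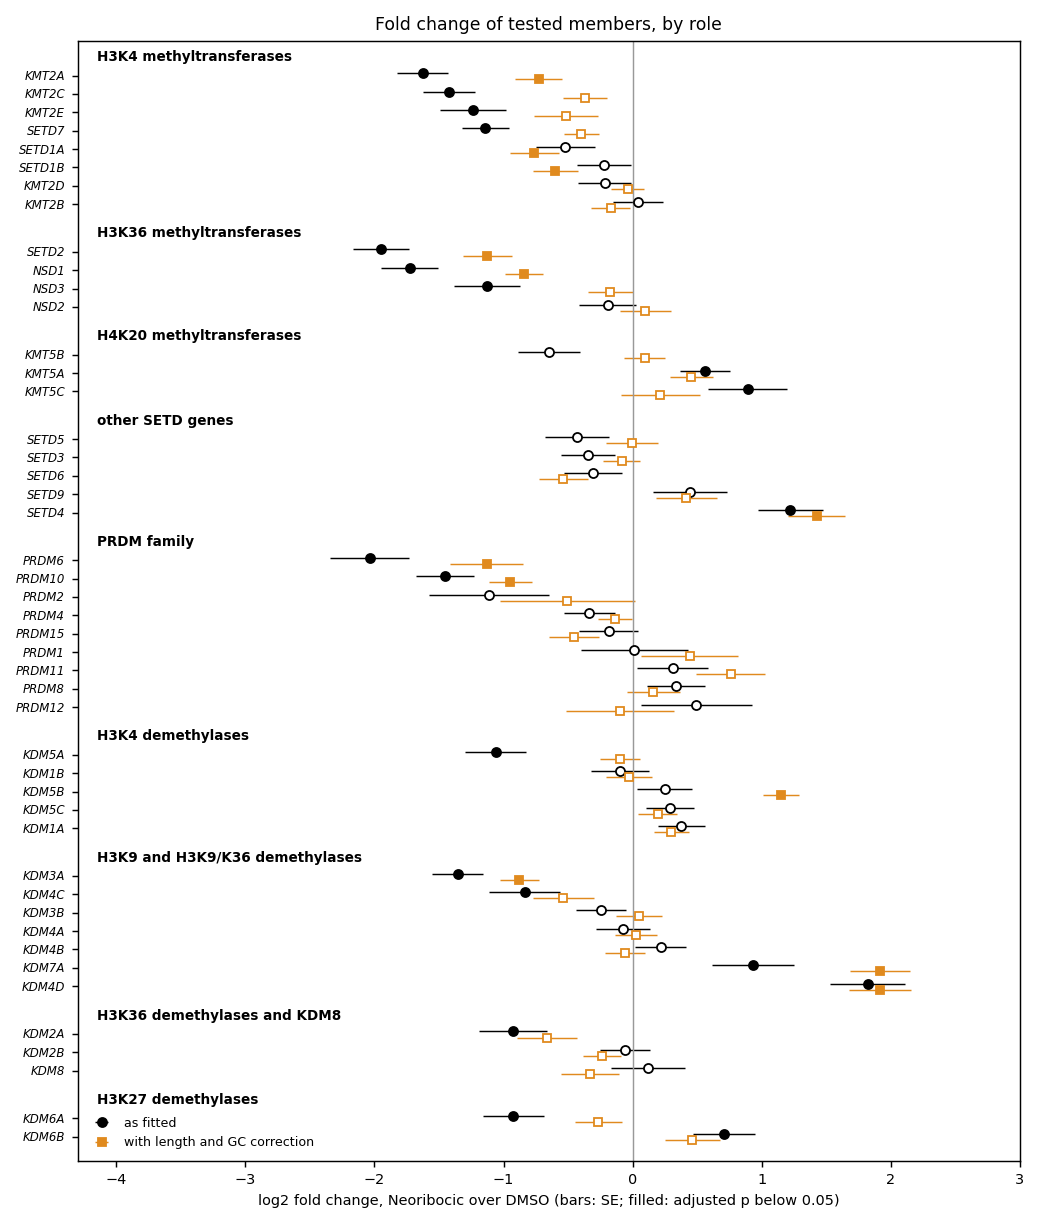
Log2 fold change of Neoribocic over DMSO for 46 tested members, grouped by role, as fitted (black circles) and with the length and GC correction (orange squares), with SE as bars. Filled symbols have an edgeR adjusted p below 0.05. SETD2, NSD1, KMT2A, KDM3A, PRDM6 and PRDM10 are filled on the left in both fits, KDM4D, SETD4 and KDM7A on the right.

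The other 8 members were not tested. PRDM7, PRDM13, PRDM14, KDM4E, KDM4F and the Y-linked KDM5D had no count in any library. PRDM9, the enzyme that places meiotic recombination sites, and PRDM16, a factor of brown fat, did not exceed 0.0942 and 0.0471 CPM.

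Ratios within a library compare related members without any scaling between libraries. No test was made of these ratios. Most pairs set a member called lower over a relative that was not called lower, so the direction of those ratios is not a further result. The log2 ratio of KDM5A to KDM5B was -1.36 and -1.40 in the Neoribocic libraries, against 0.02 and -0.17 in the DMSO libraries. These 2 genes are close in transcript length (10763 and 10341 bases) and GC content (42.9% and 44.4%). The difference between their log2 fold changes was -1.31, or -1.25 with the correction, which shifts 2 genes so alike by similar amounts. With it KDM5A stood at -0.10 and KDM5B at 1.15. The log2 ratio of KDM4D to KDM4A was -1.97 and -1.84 in the Neoribocic libraries, against -4.07 and -3.56 in the DMSO libraries, with differences of 1.90 and 1.89 without and with the correction. For KDM3A over KDM3B it was -1.69 and -1.64 in the Neoribocic libraries, against -0.61 and -0.47 in the DMSO libraries, and the differences were -1.11 and -0.93. In these 3 pairs the correction changed the difference by less than 0.2.

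In other pairs the corrected difference was much smaller. The log2 ratio of KMT2A to KMT2B was 0.38 and 0.07 in the Neoribocic libraries, against 1.88 and 1.93 in the DMSO libraries, and the difference of -1.67 became -0.56. KMT2A and KMT2B differ in GC content, 47.8% and 63.5%. KMT2C and KMT2D, the longest members at 16862 and 19419 bases, had a log2 ratio of -2.27 and -2.32 in the Neoribocic libraries, against -0.94 and -1.22 in the DMSO libraries, and their difference of -1.21 became -0.33. The GC content of KMT2C is 45.02% and that of KMT2D 59.1%. For KDM6A over KDM6B the log2 ratio was -0.93 and -0.30 in the Neoribocic libraries, against 0.77 and 1.30 in the DMSO libraries, crossing 0, and the difference of -1.63 became -0.73. For KDM5A over KDM5C the difference of -1.355 became -0.293, and for KMT5B over KMT5C that of -1.539 became -0.12. NSD1 over NSD2 was intermediate, with a difference of -1.53 that became -0.94.

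**Figure D3:**
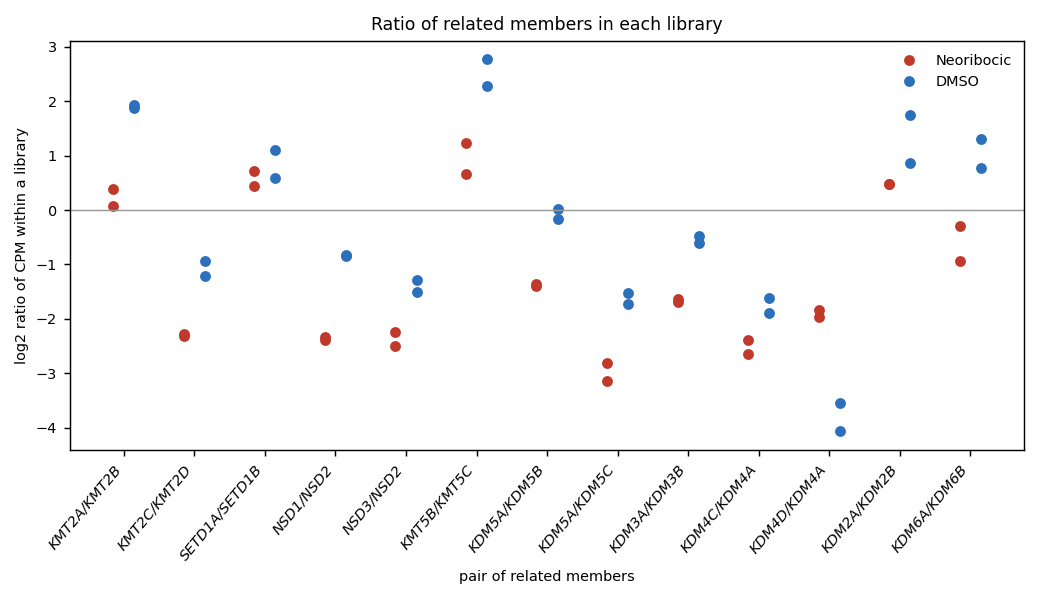
Log2 ratio of CPM of related members within each library, Neoribocic to the left of DMSO, for 13 pairs. In 11 pairs both Neoribocic libraries lie below both DMSO libraries, in KDM4D/KDM4A they lie above, and in SETD1A/SETD1B the groups overlap. Most pairs set a member called lower over a relative that was not called lower. The side was thus largely set by the choice and order of pairs, and the count is not a further result. KDM5A, NSD2 and KDM4A recur among the pairs, and how often other gene pairs separate was not counted.

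Most members are long. Their transcripts had a median of 5969 bases (range 1619 to 19419), against 3106 bases over all genes tested, and 38 of 47 were longer than that median. Of 12 members of 8 kb and above 7 fell and 1 rose, where 49.2% of all 1013 genes of that length fell and 5.92% rose. Of 11 members of 6 to 8 kb 4 fell and 1 rose, against 39.7% and 6.37% of all genes in that range. Of 14 members of 4 to 6 kb 4 fell and 1 rose, against 29.01% and 11.9% of all genes, and of 9 members of 2 to 4 kb 0 fell and 3 rose, against 17.5% and 19.5%. At 4 to 6 kb and at 6 to 8 kb the shares of members that fell, 28.6% and 36.4%, lay near those of all genes, and at 8 kb and above the share was 58.3%. With the correction the median log2 fold change of the 12 longest was -0.17, against -0.03 for all genes of that length. Across the 47 members the Spearman correlation of the log2 fold change was -0.49 with transcript length and 0.53 with GC content, against -0.40 and 0.45 across 13862 genes. These are descriptions, since all genes share the same 4 libraries.

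The members also differed in base composition. Of 26 members with a transcript GC content below 50%, 14 fell and 3 rose, and of 21 members at 50% or more 1 fell and 3 rose. Over all genes 33.9% below 50% GC fell and 7.83% rose, while 8.0% at 50% or more fell and 31.1% rose. KDM2A was the member at 50% or more that fell. The 2 Neoribocic libraries themselves differed along GC content, with a correlation of -0.38 over members and -0.52 over all genes for replicate 2 minus replicate 1. The same correlation between the DMSO libraries was -0.01 over members and 0.32 over all genes. With transcript length, replicate 2 minus replicate 1 had a correlation of 0.06 over members and 0.43 over all genes in the Neoribocic libraries, against 0.15 and -0.11 in the DMSO libraries. The part of composition in the members' fold changes was not tested beyond the correction. The correction also depends on the transcript taken for each gene. With the principal transcript 8 members were lower, against 19.4% of all genes, and 6 of the 8 were also lower without the correction. With the protein-coding transcript of median length 16 were lower, 12 of them also lower without it, and 6 were higher. In that fit 5056 of 13862 genes were called in either direction. The share of all genes lower in it was not counted, so the 16 cannot be set beside one.

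**Figure D4:**
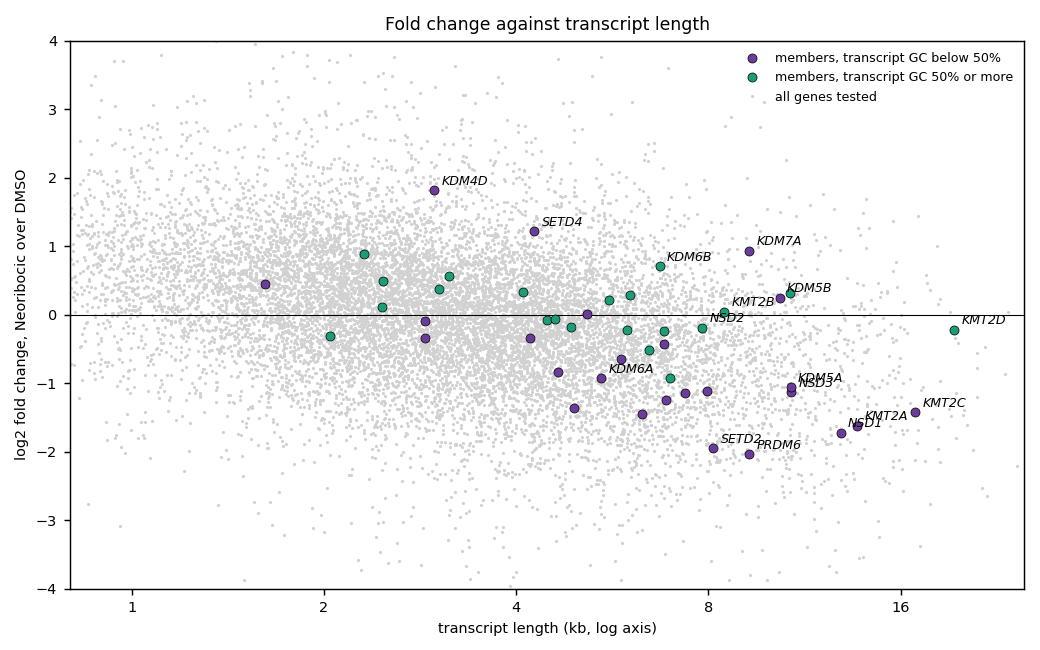
Log2 fold change of Neoribocic over DMSO against transcript length (kb, log axis) for 46 tested members, coloured by GC content, and for all genes tested (grey), with genes beyond the axes not drawn. The longest members of low GC content, KMT2A, KMT2C and NSD1, lie between -1.73 and -1.42, and the longest of all, KMT2D, with 59.1% GC, lies at -0.22.

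Genes that work with the members were counted from lists. Over all genes tested, 21.3% fell and 19.1% rose, and the count of each list stands beside these shares. Of 14 partner subunits of the KMT2 and SETD1 complexes 6 fell and 0 rose, with a median of -0.47. With the correction 7 were lower and 0 higher, against 19.4% and 16.6% of all genes, and 5 of the 7 were also lower without it. BOD1L1, which binds SETD1A at replication forks, fell, with a log2 fold change of -2.24 (edgeR adjusted p = 0.000579), PSIP1 (LEDGF), the tether of KMT2A and menin, at -1.88 (0.000798), and PAXIP1, a subunit of the KMT2C and KMT2D complexes, at -1.74 (0.00115). Their corrected values were -1.28 (adjusted p = 0.00455), -1.42 (adjusted p = 0.00385) and -1.56 (adjusted p = 0.00344). The shared core subunits WDR5, ASH2L, RBBP5 and DPY30 were not called, at 0.21, -0.10, -0.31 and 0.21. Of 16 tested lysine methyltransferase genes outside the symbol rule 4 fell and 1 rose, with a median of -0.28. With the correction 4 were lower and 1 higher. MECOM (PRDM3) fell, with a log2 fold change of -2.38, ASH1L, an H3K36 methyltransferase, at -2.00, and EZH2, the H3K27 enzyme of Polycomb, at -1.63 (edgeR adjusted p = 0.000701, 0.000859 and 0.00116). Their corrected values were -2.03 (adjusted p = 0.00336), -1.08 (adjusted p = 0.00599) and -1.39 (adjusted p = 0.004). SMYD5 rose, with a log2 fold change of 0.75 ± 0.23 (SE; edgeR adjusted p = 0.0316) and a corrected value of 0.36 (adjusted p = 0.129).

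Of 14 tested JmjC genes outside the symbol rule 1 fell and 1 rose, and with the correction 3 were lower and 2 higher. JMJD1C, a relative of KDM3A, fell, with a log2 fold change of -1.89 (edgeR adjusted p = 0.000882; corrected -0.94 (adjusted p = 0.00668)), while JMJD4, a hydroxylase of a translation release factor, was at 0.78 ± 0.25 (SE; edgeR adjusted p = 0.0352), or 0.24 (adjusted p = 0.293) corrected, with 53.8% of its exon bases overlapped on the opposite strand. Among 10 CoREST partners of KDM1A 1 fell and 1 rose. With the correction other genes passed, HDAC1 lower at -0.68 (edgeR adjusted p = 0.0226) and RCOR1 higher at 0.57 (edgeR adjusted p = 0.0199). Neither was called without it. HDAC2, a histone deacetylase, was at -0.93 ± 0.20 (SE; edgeR adjusted p = 0.00734) and HMG20B, a subunit with an HMG domain, at 0.80 ± 0.24 (SE; edgeR adjusted p = 0.0288), and with the correction they stood at 0.06 (adjusted p = 0.789) and -0.02 (adjusted p = 0.939). Of 9 partners of KDM2B in its Polycomb complex 3 fell and 1 rose, and with the correction 1 was lower and 2 higher. BCOR, a corepressor, fell, with a log2 fold change of -1.18 (edgeR adjusted p = 0.00324; corrected -0.97 (adjusted p = 0.00628)), and USP7, RNF2 and PCGF1, at -0.74, -0.63 and 0.86, were not past the threshold with the correction. Of 14 genes that read or act on H3K36 methylation 5 fell and 1 rose, and with the correction 4 were lower and 1 higher. The lists overlap, as 1 of the 5 that fell is also counted in a list above. ZMYND11, a reader of H3K36 trimethylation, fell, with a log2 fold change of -2.01 (edgeR adjusted p = 0.000656; corrected -1.44 (adjusted p = 0.00344)), and IWS1, an elongation factor that brings SETD2 to RNA polymerase, at -1.42 (0.00199; corrected -1.26 (adjusted p = 0.00406)). DNMT3A, a DNA methyltransferase that binds H3K36 dimethylation, rose, with 35.2 and 32.96 CPM in the Neoribocic libraries, against 15.9 and 11.7 CPM in the DMSO libraries, a log2 fold change of 1.31 ± 0.25 (SE; edgeR adjusted p = 0.00462) and a corrected value of 1.60 (adjusted p = 0.00472). Of these named partner genes 7 lost their call with a library left out. The edgeR adjusted p was 0.197 for SMYD5, 0.209 for JMJD4, 0.0618 for HDAC2, 0.222 for HMG20B, 0.158 for USP7, 0.205 for RNF2 and 0.103 for PCGF1 without Neoribocic replicate 1. Without Neoribocic replicate 2 it was 0.092 for RNF2 and 0.0565 for PCGF1. Without DMSO replicate 1 it was 0.129 for SMYD5, 0.124 for JMJD4, 0.0915 for HMG20B, 0.0617 for USP7, 0.0995 for RNF2 and 0.106 for PCGF1, and without DMSO replicate 2 it was 0.0685 for SMYD5, 0.0844 for JMJD4, 0.119 for HMG20B, 0.0728 for USP7 and 0.132 for RNF2. Over the 18 alternatives the adjusted p of these genes reached from 0.00019 to 0.939.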

How the data were processed

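Messenger RNA was sequenced in MDA-MB-231 cells with Neoribocic or DMSO for 24 h, 2 libraries each. The authors deposited counts for each Ensembl gene as unnormalized whole numbers, with aligner, counter and strand setting not given in the sources used here. Per the submitters' processing notes the builds are GRCm38 and mm10, both of mouse, whereas the IDs are of human genes, so only RefSeq promoters (GRCh38.p14) carry coordinates. Of counts from 1 to 19, 62.3% to 65.4% per library were even, so halved counts were one alternative. Of 20263 IDs 20148 matched a symbol; gene type, length and GC content came from GENCODE 29, 1 principal transcript per gene (the longest where several).

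Tests used edgeR 4.0.16 in R 4.3.3 (filterByExpr, TMM, robust quasi-likelihood fit with the group as its only term, Benjamini-Hochberg over 13879 genes, threshold 0.05). The SE was derived from the fold change and its F statistic (absolute log2 value over the root of F). For the correction, log2 CPM of each library was smoothed over length and GC content jointly (mgcv 1.9-3), and the result served as offset. DESeq2 1.42.0 and limma-voom (limma 3.58.1) were alternatives. The fits were tested on simulated data. Members, lists and tests were chosen with earlier results of these data known. Members past the threshold are named with full values, likewise the highest uncalled member per length in each role group and members at 0.8 or more. Up to 3 genes per direction with the smallest p are named from each other list. The result of 1 member is not reported here singly, though counts over all members include it.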

Additional observations from a re-analysis of the deposited data

How the results depend on the processing

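Over the 18 alternatives the 21 called members kept their direction in every setting and their call in 313 member-by-setting cases, losing it in 65. The 26 members not called passed in 17 such cases. The count of members called lower was 15, and 13 to 17 under the other scalings, filters and tests, but 8 with the length and GC correction, 8 with that correction and the replicate block, and 8 to 14 with a library left out, the lowest without Neoribocic replicate 1. The count called higher was 6, but 3 without edgeR's robust option and 2 to 4 with a library left out. All genes called numbered 5610, and 2468 to 4536 with a library left out, the lowest without Neoribocic replicate 1. The replicate numbers do not pair the samples by any label (correlation of the deviations -0.06); with the replicate block 16 members were lower and 5 higher, and 5594 of all genes were called. Library totals and upper-quartile factors gave all genes a median log2 fold change of 0.18 and 0.14, against 0.01 with TMM. Every sign that turned was of a member not called. Among the 36 members given by value, those that turned with the correction were KMT2B at -0.17, NSD2 at 0.0995, KMT5B at 0.0923, KDM3B at 0.0473 and KDM4A at 0.028; with the block added, KMT2B at -0.17, NSD2 at 0.10, KMT5B at 0.0919, KDM3B at 0.0585 and KDM4A at 0.0334; with the median-length transcript, an alternative added after the data were seen, KMT2B at -0.11, NSD2 at 0.39 and KDM3B at 0.27. Upper-quartile factors put KDM4A at 0.0489 and KDM2B at 0.0666, and library totals put KDM4A at 0.092 and KDM2B at 0.11. With a library left out KMT2D ran from -0.40 to 0.0022, above 0 without DMSO replicate 2, and NSD2 from -0.42 to 0.0107, above 0 without Neoribocic replicate 1. Of the 11 other tested members 6 changed sign in some alternative, with log2 fold changes over the alternatives of PRDM1 -0.45 to 0.44, PRDM11 -0.14 to 0.76, PRDM12 -0.0967 to 1.003, KDM1B -0.29 to 0.21, KDM4B -0.0622 to 0.38 and KDM8 -0.34 to 0.29; PRDM12, KDM4B and KDM8 did so with the correction, at -0.0967, -0.0592 and -0.33. The causes were not tested. Where a library is left out, the lone library of its group is assumed to vary like the other group. Depth limits the members below 6 CPM most. Halved counts gave 15 members lower and 6 higher.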
